A study of Gallus gallus with 45 samples.

Results

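The SoxE genes are SOX8 (ENSGALG00000005263), SOX9 (ENSGALG00000004386) and SOX10 (ENSGALG00000012290), chosen by these gene names, and all 3 were among the 18525 genes tested. They were followed over 12 stages of the chick neural crest, in 45 bulk RNA libraries from midbrain-level tissue of wild-type, untreated embryos. Each library pooled tissue from several embryos. At HH5 and HH6 (Hamburger-Hamilton stages, 4 libraries each) rectangular patches beside the primitive streak were taken, and at the later stages neural plate borders or neural fold apices. Somite stages are written 1ss to 10ss, with 1ss for the libraries labelled HH7. From 8ss on, the pieces held the dorsal neural tube and the crest that had just left it. Stage and dissected tissue cannot be told apart in a comparison across either change, from HH6 to 1ss or from 7ss to 8ss. There were 4 libraries at each of 1ss to 5ss, 7ss and 9ss, and 3 libraries at 6ss, 8ss and 10ss. Pooled groups followed the study, with HH7 for 1ss to 3ss (12 libraries), HH8 for 4ss to 6ss (11 libraries), HH9 for 7ss to 9ss (11 libraries) and HH10 for 10ss (3 libraries).

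SoxE proteins are transcription factors with a shared HMG domain that bends DNA, and they bind closely related sites. In the neural crest of vertebrates, SOX9 acts early, in crest formation, and later directs cartilage. SOX10 marks the crest from late premigratory stages on and is needed for glia, pigment cells and enteric neurons. SOX8 overlaps with both in many tissues. In the chick, an enhancer of SOX10 that is active in the cranial crest is bound by SOX9, ETS1 and MYB.

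Between 15.4 M and 30.5 M reads were counted on genes per library (median 22.9 M). All 45 libraries had as nearest library, over 2000 variable genes, one of the same or a neighbouring stage, and no pair within a stage agreed within sampling noise (chi-square per degree of freedom at least 17.3 over 63 pairs). Levels are in CPM, the reads of a gene relative to the library's total after TMM scaling (the trimmed mean of M-values). The scale between libraries left the median gene within 0.072 of 0 on the log2 scale in every comparison with HH5. Each value averages all cells of a dissected piece, and in such tissue fewer cells of a type and less RNA per cell cannot be told apart.

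All 3 SoxE genes had reads in every library. SOX10 reached the highest read counts, with 40 to 13809 reads per library and a mean over all libraries of 119 CPM. SOX9 had 35 to 862 reads (mean 11.6 CPM) and SOX8 13 to 162 reads. Transcript lengths were not used here, so these CPM values do not rank the genes against each other. From HH5 to 10ss the mean of SOX10 increased from 5.65 to 358 CPM, that of SOX9 from 2.05 through 40.3 at 6ss to 8.16 CPM, and that of SOX8 from 1.15 to 3.95 CPM.

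**Figure D1:**
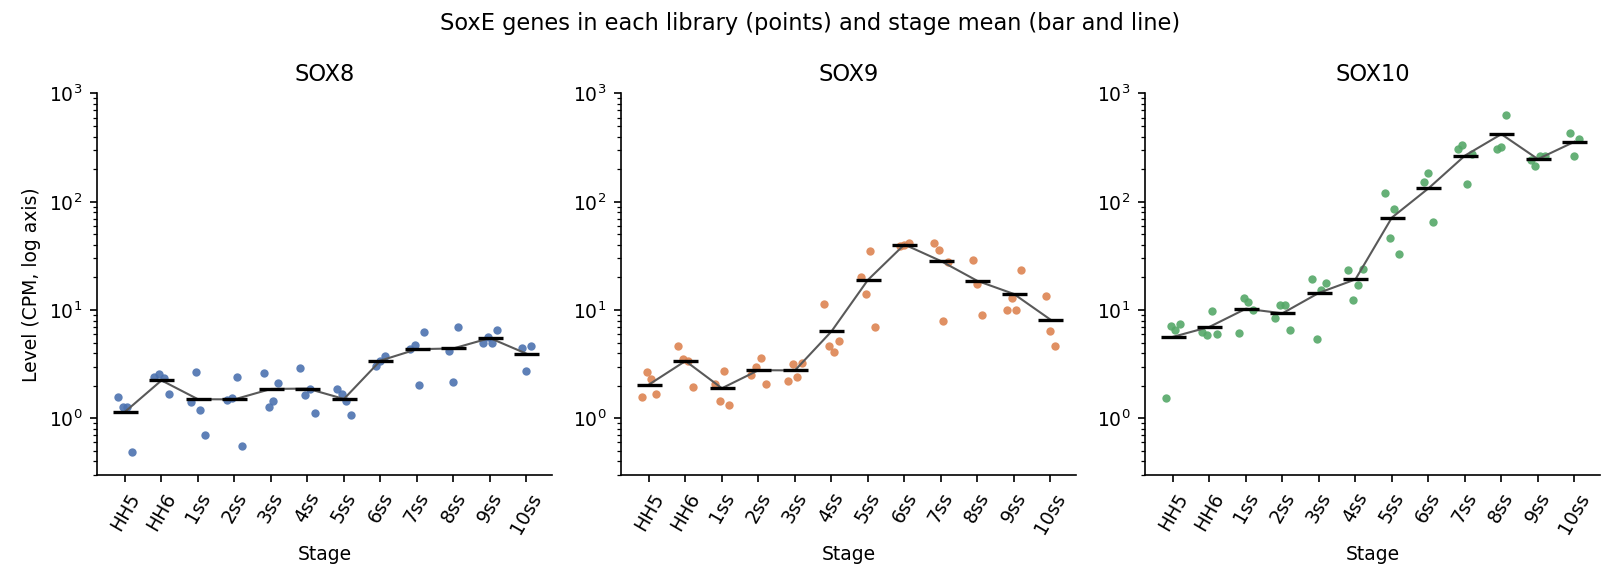
Levels of SOX8, SOX9 and SOX10 in CPM (log axis) at 12 stages, with a point for each of the 45 libraries and a bar and line at the stage mean. SOX8 is at most 6.92 CPM in any library, SOX9 has its highest mean at 6ss (40.3 CPM), and SOX10 has its highest mean at 8ss (421 CPM).

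SOX9, the factor with an early role in crest formation, was low through neurulation's first stages. Its levels in the 4 HH5 libraries were 1.56, 2.66, 2.31 and 1.67 CPM (41, 61, 60 and 44 reads). At HH6 they were 4.64, 3.56, 3.40 and 1.94 CPM, overlapping HH5. The next stages overlapped HH5 as well, with 2.06, 1.46, 2.73 and 1.34 CPM at 1ss. At 2ss the levels of SOX9 were 2.51, 2.96, 3.57 and 2.08 CPM. At 3ss they were 2.23, 3.18, 2.41 and 3.25 CPM, a spread of 0.523 CPM (SD, n = 4) around a mean of 2.77 CPM, against a counting error of 0.364 CPM. The libraries of these 5 early stages thus lay in a single band up to 4.64 CPM.

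From 4ss every SOX9 library lay above every HH5 library. The levels were 11.5, 4.67, 4.07 and 5.14 CPM at 4ss, where replicate 1 stood above the others. At 5ss they were 20.1, 14.0, 34.9 and 6.93 CPM, with an SD of 11.9 CPM (n = 4). At 6ss SOX9 stood at 39.2, 40.0 and 41.6 CPM, and the SD of 1.25 CPM (n = 3) was within the counting error at 693, 797 and 686 reads. At 7ss the levels were 41.6, 36.2, 7.86 and 27.7 CPM, with replicate 3 far below the other libraries. At 8ss they were 29.2, 17.5 and 8.99 CPM, and at 9ss 10.1, 12.8, 9.91 and 23.4 CPM. At 10ss SOX9 was at 13.4, 6.44 and 4.61 CPM, so all 3 libraries lay below all 3 of 6ss, and the mean was 20.3% of that at 6ss. Of the other stages, only 7ss overlapped the 6ss libraries. This fall after the highest stage is a description, since the highest stage was picked from the same values.

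SOX10, the factor that marks late premigratory and migrating crest, was counted from HH5 on. Its levels at HH5 were 1.53, 7.19, 6.51 and 7.38 CPM, where replicate 1 (40 reads) was far below the other libraries (165 to 195 reads). At HH6 they were 6.26, 5.88, 9.74 and 6.07 CPM, which overlaps HH5. At 1ss SOX10 had 6.17, 13.0, 11.8 and 10.1 CPM, and at 2ss 8.40, 11.2, 11.1 and 6.61 CPM. The libraries of both stages still overlapped those of HH5. At 3ss the levels were 19.2, 5.40, 15.3 and 17.6 CPM, so 3 of the 4 libraries were above every HH5 library and replicate 2 was not. At 4ss they were 23.5, 12.4, 16.9 and 23.9 CPM, the earliest stage at which all libraries exceeded all of HH5.

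At 5ss the SOX10 libraries stood at 121, 45.9, 85.5 and 32.9 CPM, all above those of 4ss. At 6ss they were at 151, 183 and 64.5 CPM. At 7ss they reached 306, 336, 147 and 278 CPM, where replicate 3 was again the lowest. SOX10 was thus at more than 50% of its highest stage mean from 7ss on. At 8ss the levels were 309, 321 and 633 CPM, and replicate 3 alone set the highest mean (421 ± 184 CPM, SD, n = 3). At 9ss they were 245, 215, 267 and 266 CPM, within a narrow range, and at 10ss 431, 266 and 377 CPM. With medians, or without 8ss replicate 3, the highest stage was 10ss. The order of the late stages is therefore not settled, and 7ss and 10ss overlapped 8ss.

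SOX8, the SoxE gene with the lowest counts, stayed in single digits of CPM. Its levels at HH5 were 1.56, 1.26, 1.27 and 0.492 CPM (41, 29, 33 and 13 reads), with an SD of 0.459 CPM (n = 4) against a counting error of 0.213 CPM. At HH6 they were 2.39, 2.55, 2.36 and 1.66 CPM, all just above HH5. At 1ss they were 1.42, 2.67, 1.20 and 0.706 CPM, and 3 of the 4 lay within the range of HH5. At 2ss SOX8 had 1.47, 1.54, 2.42 and 0.551 CPM, and at 3ss 2.61, 1.26, 1.46 and 2.14 CPM. At 4ss it had 2.93, 1.64, 1.85 and 1.11 CPM, and at 5ss 1.85, 1.66, 1.45 and 1.07 CPM. From 1ss to 5ss the libraries of SOX8 thus overlapped HH5 at every stage.

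At 6ss the SOX8 libraries lay above those of all earlier stages, with 3.05, 3.42 and 3.76 CPM. At 7ss they had 4.34, 4.78, 2.05 and 6.21 CPM, with replicate 3 low as for SOX9 and SOX10. At 8ss SOX8 was at 4.18, 2.15 and 6.92 CPM, and at 9ss at 4.99, 5.61, 4.93 and 6.51 CPM, the highest mean (5.51 ± 0.736 CPM, SD, n = 4). At 10ss it was at 4.49, 2.76 and 4.61 CPM, below all 9ss libraries. From 6ss on every library lay above every HH5 library. Still, 7ss replicate 3, 8ss replicate 2 and 10ss replicate 2 lay within the range of 1ss to 5ss. Without 8ss replicate 2, the highest mean of SOX8 was at 8ss.

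Placed in order of their stage means, most neighbouring stages had libraries with overlapping ranges. The order was taken from the same means, which favours overlap between neighbours, so this is a description. For SOX9, all 11 neighbouring pairs of stages overlapped. For SOX10, 9 of 11 pairs overlapped, and the gaps lay between 4ss and 5ss and between 6ss and 9ss. For SOX8, 10 of 11 pairs overlapped, and the gap lay between HH6 and 6ss.

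The means of the 3 genes followed different courses relative to their own highest mean. At 5ss SOX9 was at 47.1% of its highest mean, SOX8 at 27.4% and SOX10 at 17.0%. At 6ss, where SOX9 stood at 100%, SOX8 had reached 61.9% and SOX10 31.5%. At 10ss SOX10 was at 85.0%, SOX8 at 71.8% and SOX9 at 20.3%. The stage at which the mean first passed 50% was 6ss for SOX9 and SOX8 and 7ss for SOX10, and without 5ss replicate 2 or without 5ss replicate 4 it was 5ss for SOX9.

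**Figure D2:**
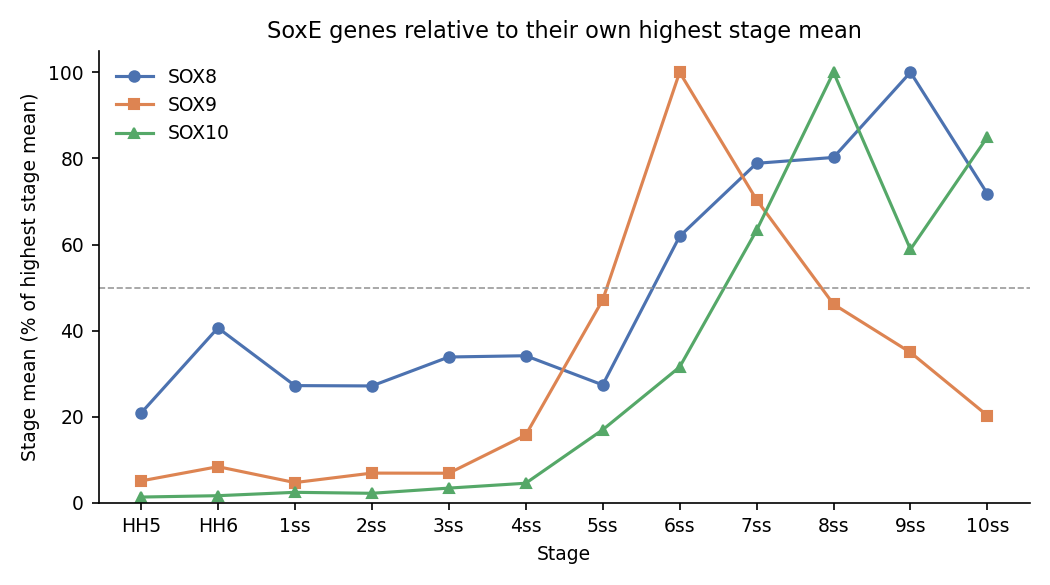
Stage mean of each SoxE gene as a percentage of its own highest stage mean, at 12 stages; the dashed line marks 50%. SOX9 is highest at 6ss and stands at 20.3% at 10ss, while SOX10 and SOX8 are at 85.0% and 71.8% there.

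Each stage was then compared with HH5, to ask from which stage a gene was called higher at it and at every later stage. Counts of all 45 libraries entered edgeR's quasi-likelihood test, and calls required an adjusted p below 0.05 and a log2 fold change above 0.75. These 11 comparisons share the 4 HH5 libraries. Those from 1ss on also cross the change of dissected tissue after HH6. At HH6, 1ss and 2ss no SoxE gene was called higher, with 0.901%, 1.23% and 2.25% of all genes called higher. For SOX8 at HH6 the log2 fold change was 0.96 (standard error 0.40, adjusted p = 0.22), although its HH6 libraries all lay above those of HH5.

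SOX10 was the only SoxE gene called at 3ss, at 2.56-fold (log2 fold change 1.36, standard error 0.39, adjusted p = 0.015), where 3.3% of all genes were called higher. Without HH5 replicate 1 its adjusted p was 0.072 and without 3ss replicate 1 it was 0.060, and the earliest stage was then 4ss. SOX9 joined at 4ss, at 3.09-fold (log2 fold change 1.63, standard error 0.44, adjusted p = 0.0076), beside SOX10 at 3.40-fold, where 4.33% of all genes were called higher. Without 4ss replicate 1 the fold change of SOX9 was 1.18 on the log2 scale (adjusted p = 0.077) and its earliest stage was 5ss. At 5ss SOX9 and SOX10 were called at 9.26-fold and 12.7-fold, and 7.11% of all genes were called higher. SOX8 was called from 6ss on, at 2.96-fold (log2 fold change 1.57, standard error 0.43, adjusted p = 0.0069), where 5.88% of all genes were called higher. No left-out library moved the earliest stage of SOX8.

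From 6ss to 10ss all 3 genes were called at each stage. The share of all genes called higher was 7.22% at 7ss, 7.96% at 8ss, 7.67% at 9ss and 7.59% at 10ss. The largest fold of SOX9 was 19.6 at 6ss (log2 fold change 4.30, standard error 0.48), and at 10ss it was 4.00-fold. SOX10 went from 23.5-fold at 6ss to 74.5-fold at 8ss (log2 fold change 6.22, standard error 0.47) and 63.3-fold at 10ss. SOX8 ranged from 2.96-fold at 6ss to 4.79-fold at 9ss (log2 fold change 2.26, standard error 0.40). That the earliest called stages of the 3 genes differ was not tested as such. A test against a minimum log2 fold change of 0.75 put each of them a stage later, at 4ss for SOX10, 5ss for SOX9 and 7ss for SOX8.

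**Figure D3:**
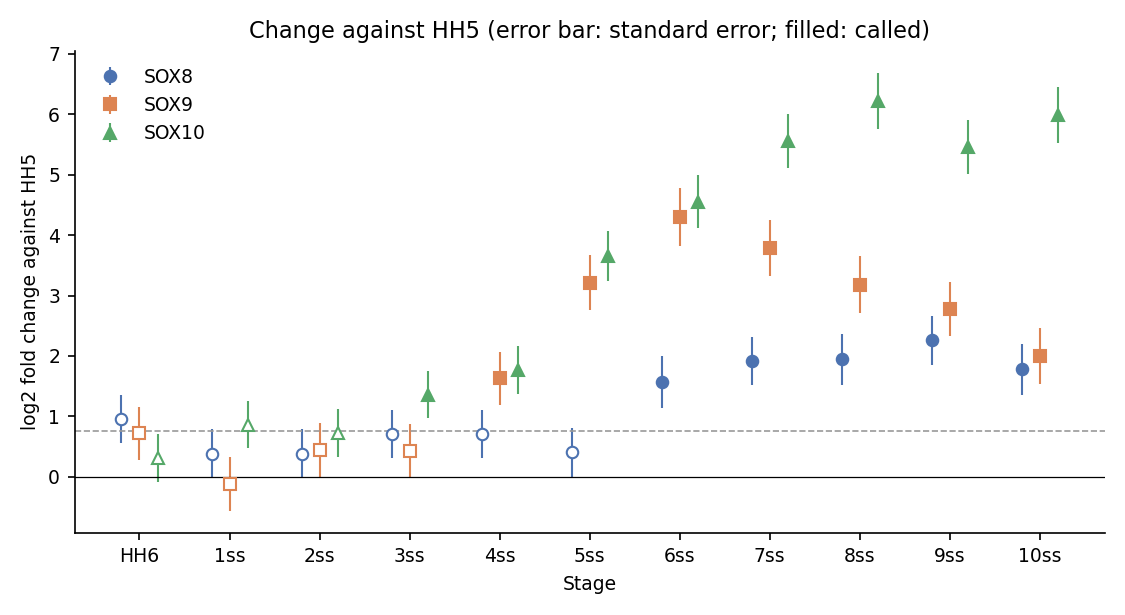
Log2 fold change of each SoxE gene against HH5 at 11 stages, with error bars for the standard error derived from the test's F statistic. Filled symbols were called, open symbols were not, and the dashed line marks 0.75. SOX10 is called from 3ss, SOX9 from 4ss and SOX8 from 6ss, and SOX9 falls back from 4.30 at 6ss to 2.00 at 10ss.

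Between consecutive stages a single step of a SoxE gene was called. SOX10 rose 3.72-fold from 4ss to 5ss (log2 fold change 1.90, standard error 0.38, adjusted p = 0.025), a step at which 0.0594% of all genes were called in either direction. This call was lost when 4ss replicate 2, 4ss replicate 3, 5ss replicate 1 or 5ss replicate 3 was left out (adjusted p between 0.081 and 0.32) with only the libraries of both stages in the fit (adjusted p = 0.080), and in the test against a minimum of 0.75 (adjusted p = 0.81). At the same step SOX9 had a log2 fold change of 1.58 (standard error 0.42, adjusted p = 0.12), which was called without 5ss replicate 4 (adjusted p = 0.021) and by DESeq2's Wald test (adjusted p = 0.027).

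At the other steps few genes of any kind were called. The share called in either direction was 1.92% from HH5 to HH6, 0.0108% from HH6 to 1ss, 0% from 1ss to 2ss and from 2ss to 3ss, and 0.0108% from 3ss to 4ss. SOX9 had a log2 fold change of 1.20 from 3ss to 4ss (unadjusted p = 0.0085, adjusted p = 0.61). From 5ss to 6ss 0.227% of all genes were called, and SOX8, SOX9 and SOX10 had log2 fold changes of 1.17, 1.08 and 0.89 (adjusted p = 0.25, 0.30 and 0.35). The share was 0.0054% from 6ss to 7ss, 0.0378% from 7ss to 8ss, 0.459% from 8ss to 9ss and 0.184% from 9ss to 10ss. Over these late steps SOX9 had log2 fold changes of -0.51, -0.61, -0.40 and -0.78, none of which was called. At an unadjusted p below 0.05 in this test there were 3 of 11 steps each for SOX9 and SOX10 and 2 of 11 for SOX8. The share of all genes at that level was not taken, so these counts have no background beside them.

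In a second fit, the pooled groups were compared. HH10, HH5 and HH6 hold the same libraries here as in the fit by stage, and the 3 HH10 libraries are shared by the first 5 of the 6 comparisons. All 6 comparisons cross a change of dissected tissue, wholly or for a part of their libraries. Against HH5, where 7.2% of all genes were called higher at HH10 and 9.8% lower, all 3 SoxE genes were called higher. SOX10 was 63.3-fold higher (log2 fold change 5.98, standard error 0.67, adjusted p = 3.2e-09), SOX9 4.00-fold (log2 fold change 2.00, standard error 0.62, adjusted p = 0.015) and SOX8 3.44-fold (log2 fold change 1.78, standard error 0.44, adjusted p = 0.0025). The call of SOX9 was lost in this pooled fit without 10ss replicate 1, at a log2 fold change of 1.45 (adjusted p = 0.14). In the fit by stage, the quasi-likelihood test of the same libraries had a smaller standard error (0.46, adjusted p = 0.0011). There the call of SOX9 at 10ss was kept without any single library. Against HH6, where 5.47% were called higher, SOX10 alone was called, at 51.1-fold, while SOX9 was at 2.43-fold (adjusted p = 0.14) and SOX8 at 1.77-fold (adjusted p = 0.20).

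Against HH7, where 6.48% of all genes were called higher, SOX10 was 31.5-fold, SOX9 3.31-fold and SOX8 2.43-fold higher at HH10, and all were called. The call of SOX9 was lost without 10ss replicate 1 (log2 fold change 1.17, adjusted p = 0.19), and that of SOX8 without 10ss replicate 3 (log2 fold change 1.16, adjusted p = 0.051). Against HH8 (3.78% called higher and 3.78% lower) SOX10 was called 5.17-fold higher, at a log2 fold change of 2.37 (standard error 0.43, adjusted p = 0.00014). SOX9 was not called against HH8, at a log2 fold change of -1.30 (standard error 0.55, adjusted p = 0.13), and neither was SOX8, at 0.87 (adjusted p = 0.11). Against HH9, where 0.194% of all genes were called higher and 0.135% lower, no SoxE gene was called. The log2 fold change of SOX9 was -1.32 there (unadjusted p = 0.021, adjusted p = 0.35), against 0.25 for SOX10 and -0.28 for SOX8.

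From HH6 to HH8, where 3.54% of all genes were called higher, SOX9 rose 5.98-fold (log2 fold change 2.58, standard error 0.54, adjusted p = 0.00053) and SOX10 9.88-fold (log2 fold change 3.30, standard error 0.54, adjusted p = 1.9e-05). SOX8 was not called, with a log2 fold change of -0.05 (standard error 0.34, adjusted p = 0.95). Its 4ss and 5ss libraries lay between 1.07 and 2.93 CPM and its 6ss libraries between 3.05 and 3.76 CPM. The pooled HH8 group thus joins stages whose SOX8 libraries did not overlap, although the step from 5ss to 6ss was not called (log2 fold change 1.17, adjusted p = 0.25).

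The balance among the SoxE genes was read within each library, as the log2 ratio of their reads, which needs no scaling between libraries and in which a constant gene length drops out of any change. The ratio of SOX10 to SOX9 had a mean of 2.13 ± 0.725 in HH7 (SD, n = 12) and 1.75 ± 0.599 in HH8 (SD, n = 11), a difference that was within the spread (two-sided permutation test, p = 0.19, adjusted p = 0.19 over 9 tests). The means of both genes were higher in HH8 than in HH7, and their ratio had no called change. In HH9 the ratio was 4.02 ± 0.922 (SD, n = 11), and all HH9 libraries (2.88 to 6.13) lay above all HH8 libraries (0.63 to 2.59). This is a 4.82-fold shift towards SOX10 (permutation test, p = 1e-05, the smallest that 100000 resamples can give, adjusted p = 9e-05). In HH10 the ratio was 5.57 ± 0.697 (SD, n = 3), 2.92-fold above HH9 (exact permutation test, p = 0.016, adjusted p = 0.029), with libraries from 5.00 to 6.35 that overlap HH9 through 8ss replicate 3. This last call was lost with medians (adjusted p = 0.12), without 10ss replicate 3 (adjusted p = 0.17), and at an adjusted p of 0.050 without 7ss replicate 2, 7ss replicate 4, 8ss replicate 1 or 9ss replicate 4.

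By single stage, the SOX10 to SOX9 ratio was 1.94, 2.19 and 0.63 in the 6ss libraries and 2.88, 3.21, 4.22 and 3.32 in the 7ss libraries. The study's methods name neural plate borders or neural fold apices for both stages, without saying which was taken at which. The ratio was not tested between 6ss and 7ss. At 10ss it was 5.00, 5.36 and 6.35, and the lowest of these lay above all libraries up to 7ss.

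The ratio of SOX9 to SOX8 moved in the other order. Its mean log2 value was 0.69 ± 0.704 in HH7 (SD, n = 12) and 2.83 ± 1.04 in HH8 (SD, n = 11), a 4.41-fold increase (permutation test, p = 3e-05, adjusted p = 0.00014). In HH9 it was 1.95 ± 0.967 (SD, n = 11), lower by 0.88 on the log2 scale (permutation test, p = 0.054, adjusted p = 0.081). This passed without 4ss replicate 2, 4ss replicate 3, 7ss replicate 1 or 8ss replicate 2 (adjusted p from 0.031 to 0.047). In HH10 it was 0.93 ± 0.826 (SD, n = 3), which did not pass against HH9 (exact permutation test, p = 0.13, adjusted p = 0.17) and is near the HH7 mean. The 6ss libraries, at 3.67, 3.54 and 3.46, had the highest mean and differed by little.

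The ratio of SOX10 to SOX8 increased over both intervals. It went from 2.82 ± 0.598 in HH7 (SD, n = 12) to 4.59 ± 1.18 in HH8 (SD, n = 11), a 3.40-fold increase (permutation test, p = 0.0002, adjusted p = 0.0006), and to 5.98 ± 0.572 in HH9 (SD, n = 11), a further 2.62-fold increase (permutation test, p = 0.0017, adjusted p = 0.0038). From HH9 to HH10 it did not pass (6.50 ± 0.133, SD, n = 3, exact permutation test, p = 0.15, adjusted p = 0.17), except without 8ss replicate 2 (adjusted p = 0.042).

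**Figure D4:**
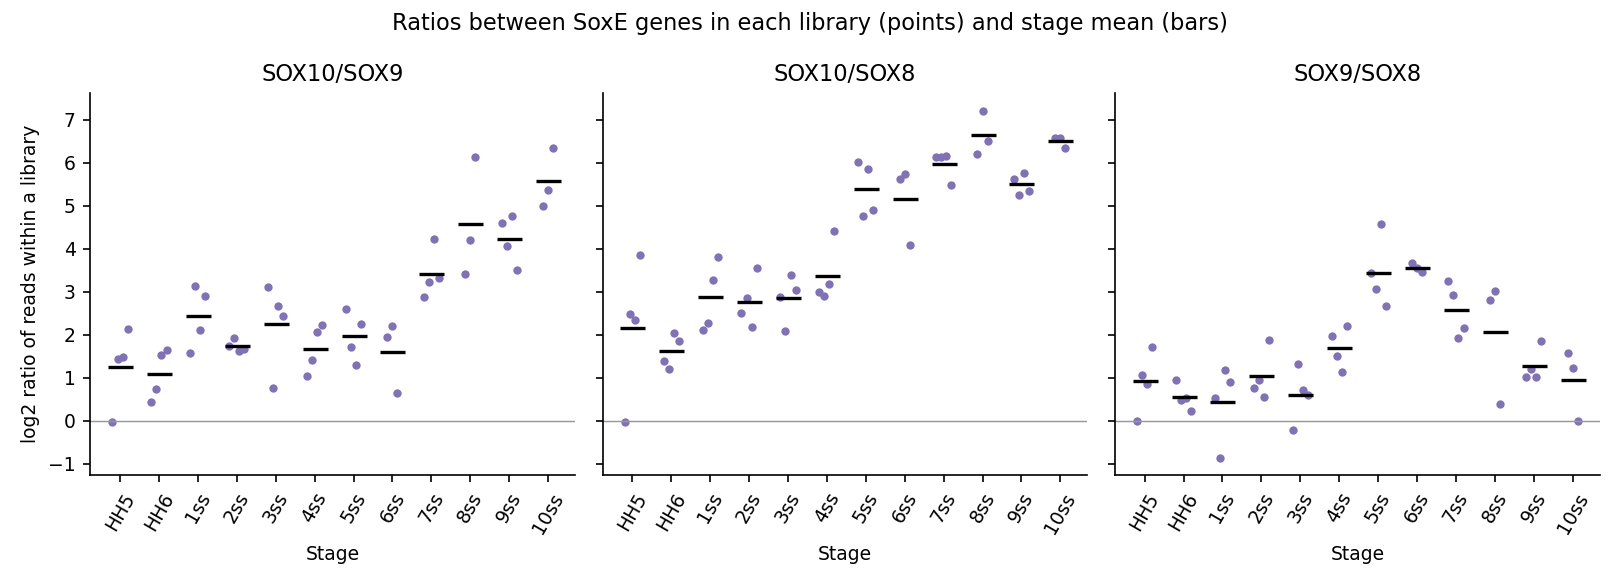
Log2 ratio of reads between SoxE genes within each library at 12 stages, with a point for each library and a bar for the stage mean; 0 means equal read counts. The SOX10 to SOX9 ratio is at most 3.14 up to 6ss and stands at 5.00 to 6.35 at 10ss, while the SOX9 to SOX8 ratio is highest at 6ss (mean 3.56).

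As shares of all SoxE reads, SOX9 took 24.5 ± 6.72% at HH5 (SD, n = 4). Its share was 17.7 to 37.9% among the 3 libraries of 6ss, with a mean of 25.3%, and 2.18 ± 0.913% among those of 10ss (SD, n = 3). SOX10 took 59.8 ± 19.0% at HH5, 72.5 ± 12.1% at 6ss and 96.8 ± 0.811% at 10ss. SOX8 took 15.7 ± 12.4% at HH5 and 1.07 ± 0.110% at 10ss, although its own level was higher at 10ss. These shares count reads and are not shares of transcripts, since the lengths of the genes differ.

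Within a stage, libraries that were high in 1 SoxE gene tended weakly to be high in the others. The deviations from the stage means on the log2 scale had a Pearson r of 0.35 for SOX8 with SOX9, 0.29 for SOX8 with SOX10 and 0.32 for SOX9 with SOX10 over the 45 libraries, given as a description with no p, since the values of a pair come from the same library and share its pieces and depth. A single library was the lowest of its stage in all 3 genes at 3 of 12 stages (2ss replicate 4, 5ss replicate 4 and 7ss replicate 3), and none was the highest in all 3. How many such stages chance would give was not taken, so these counts have no background beside them. In 7ss replicate 3 the 5 crest markers FOXD3, SNAI2, ETS1, TFAP2B and PAX7 summed to 1166 CPM, against 1263 to 1513 CPM in the other 7ss libraries. In 5ss replicate 4 they summed to 554 CPM, the lowest of the stage, against 598 to 1067 CPM, and replicates 1 and 3, without which the step of SOX10 from 4ss to 5ss was not called, had 1001 and 1067 CPM. In 2ss replicate 4 the sum was 189 CPM, within the 151 to 234 CPM of the other 2ss libraries. In 8ss replicate 3, where SOX10 was highest and SOX9 lowest, their sum was 1094 CPM, between the 1225 and 999 CPM of the other 8ss libraries.

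The mRNA levels of markers of several cell types changed along with the SoxE genes. These sums do not count cells, and single genes weigh much in them. At HH5 the mean of ETS1 among the crest markers was 161 CPM, and that of GATA3 among the epidermis markers was 989 CPM. Calls given here are those of HH10 against HH5, where 7.2% of all genes were called higher and 9.8% lower. The summed level of the crest markers (all 5 of 5 measured) was 124 to 283 CPM at HH5, 417 to 1439 CPM in HH8, 476 to 1513 CPM in HH9 and 482 to 842 CPM in HH10. Of them, 4 rose and 0 fell. Epidermis markers (6 of 7 measured) went from 1437 to 2205 CPM at HH5 to 374 to 430 CPM in HH10, and 0 of them rose and 5 fell. Paraxial mesoderm and sclerotome markers (6 of 7) went from 104 to 289 CPM to 24.4 to 75.5 CPM (0 rose and 5 fell), and endoderm markers (5 of 5) from 74.1 to 126 CPM to 5.03 to 9.68 CPM (0 rose and 5 fell). In HH10, 1 gene each of the mesoderm, endoderm and notochord lists had at most 3 reads in every library. Notochord and floor plate markers (6 of 6) went from 62.5 to 98.2 CPM to 23.2 to 37.5 CPM (1 rose and 3 fell). Markers of otic and other placodes (7 of 8), tissues that also use SOX8, SOX9 and SOX10, were at 53.9 to 91.9 CPM at HH5, 104 to 203 CPM in HH9 and 91.6 to 122 CPM in HH10, with 1 gene called higher (PAX2, which the midbrain also uses) and 3 lower. Neural plate and tube markers (6 of 6) went from 54.5 to 84.2 CPM to 102 to 123 CPM (2 rose), and blood and vessel markers (5 of 5) were at 25.5 to 36.8 CPM at HH5 and 31.0 to 61.1 CPM in HH10 (2 rose). Their part in the changes of the SoxE genes was not tested.

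Of the proteins that bind the cranial SOX10 enhancer in the chick, only the mRNA of SOX9 was called higher at HH10 than at HH5. There 7.2% of all genes were called higher, and the call of SOX9 was lost in this pooled fit without 10ss replicate 1. ETS1, an ETS-domain factor of the cranial crest, had 161 ± 69.0 CPM at HH5 (SD, n = 4), 52.7 ± 12.4 CPM in HH7 (SD, n = 12), 302 ± 149 CPM in HH9 (SD, n = 11) and 129 ± 26.8 CPM in HH10 (SD, n = 3). MYB had 6.12 ± 1.26 CPM at HH5 (SD, n = 4) and 5.36 ± 0.814 CPM in HH10 (SD, n = 3). From HH5 to HH10 their log2 fold changes were -0.31 and -0.19 (adjusted p = 0.72 and 0.78). From HH7 to HH10, where 6.48% of all genes were called higher, ETS1 was called higher as SOX9 was (log2 fold change 1.29, standard error 0.40, adjusted p = 0.020). MYB was not (log2 fold change -0.11, adjusted p = 0.86). From HH6 to HH8, where 3.54% of all genes were called higher, SOX9 was called. ETS1 (log2 fold change 1.12, adjusted p = 0.059) and MYB (log2 fold change -0.34, adjusted p = 0.47) were not. In mean level SOX9 and ETS1 were lower in HH10 than in HH9 while SOX10 was not, and none of these differences was called.

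Other crest and border genes gave the setting. Of 19 listed names of crest specifiers and border genes, 18 were found among the genes tested. Of these 18, 7 were called higher at HH10 than at HH5 and 1 lower, against 7.2% of all genes higher and 9.8% lower (median log2 fold change 0.95, against -0.07 over all genes). The largest rises were those of TFAP2B (log2 fold change 7.88), an AP-2 factor of the border and crest, PAX7 (3.19), a border factor, and FOXD3 (2.61), a forkhead factor of premigratory crest. TWIST1, a bHLH factor of mesenchyme, fell by 2.53. The highest pooled mean of PAX7 was in HH8, at 58.7 ± 15.1 CPM (SD, n = 11), and it was 22.6 ± 2.63 CPM in HH10 (SD, n = 3).

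Genes that depend on SOX10 in glia, pigment cells and enteric neurons were mostly at low levels. Of 16 measured of 17 listed, 6 were called higher at HH10 than at HH5 and 2 lower, beside 7.2% and 9.8% of all genes (median log2 fold change 0.29, against -0.07 over all genes). The number called lower is near the share of all genes. FABP7, a fatty acid binding protein of neural progenitors and glial precursors, went from 101 ± 8.04 CPM at HH5 (SD, n = 4) to 543 ± 69.3 CPM in HH10 (SD, n = 3, log2 fold change 2.43). RXRG, a retinoid X receptor, went from 4.28 to 21.0 CPM (log2 fold change 2.29), and GFRA1, a receptor for GDNF, from 1.70 to 5.28 CPM (log2 fold change 1.63). EDNRB, an endothelin receptor, fell by 1.77 on the log2 scale, and MITF, the factor of pigment cells, by 1.08.

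Genes that SOX9 controls in cartilage were also counted, long before cartilage forms. Of 12 measured of 14 listed, 5 were called higher at HH10 than at HH5 and 1 lower, where 7.2% and 9.8% of all genes were (median log2 fold change 0.71, against -0.07 over all genes). The 1 gene called lower is near the share of all genes. COL9A3, a chain of type IX collagen, had 1.31 ± 0.313 CPM at HH5 (SD, n = 4), 2.57 ± 2.06 CPM in HH8, 20.2 ± 8.11 CPM in HH9 (SD, n = 11 each) and 29.0 ± 9.28 CPM in HH10 (SD, n = 3). MATN1, a matrilin, went from 6.18 CPM at HH5 to 20.7 CPM in HH8 and 55.3 CPM in HH10, and COL9A1 from 12.6 to 12.4 and 56.1 CPM. These 3 genes were named for the size of their rise to HH10, which favours late levels. HAPLN1, a link protein of hyaluronan, fell by 1.98 on the log2 scale.

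SoxD proteins (SOX5, SOX6 and SOX13) work beside SoxE proteins in cartilage and glia. SOX5 was called higher at HH10 than at HH5 (log2 fold change 0.87, adjusted p = 0.030), with pooled means of 10.2 CPM at HH5, 26.1 CPM in HH9 and 18.6 CPM in HH10, while SOX13 fell by 0.84 (adjusted p = 0.047). Of 17 other SOX names listed, those of the SoxD genes included, 13 were found among the genes tested. Of these 13, 3 were called higher and 2 lower, with 7.2% and 9.8% of all genes called (median log2 fold change -0.43, against -0.07 over all genes). The number called lower is near the share of all genes. The other calls were SOX1 (log2 fold change 2.77), a SoxB1 factor of the neural plate, SOX18 (1.85), a factor of vessels, and SOX17, a factor of endoderm that was at least 111-fold lower, with the HH5 mean set against 3 reads in a library since no HH10 library had more. The median is the same with SOX17 at this bound.

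The genes most like each SoxE gene were ranked by the Pearson r of log2 CPM over the 45 libraries, among 7837 genes, as a description with no p, since the points share the order of stages. Closest to SOX9 were CDON, a cell surface co-receptor for hedgehog proteins (r = 0.91), SEMA3D, a secreted guidance protein (0.88), SNAI2, a repressor of epithelial genes in the crest (0.88), MAP3K4, a kinase (0.88), and TMEM132C, a membrane protein (0.87). SNAI2 had a mean of 78.5 CPM in HH7, 372 CPM in HH8, 295 CPM in HH9 and 188 CPM in HH10, and CDON 10.6, 29.4, 31.4 and 17.2 CPM. The means of both were thus higher in HH8 and HH9 than before and after, as were those of SOX9 (2.48, 20.2, 20.5 and 8.16 CPM). The same held for SEMA3D (22.8, 77.7, 64.7 and 52.8 CPM). MAP3K4 was nearly level from HH8 on (11.8, 20.9, 20.5 and 20.0 CPM), and TMEM132C was highest in HH10 (6.48, 18.4, 22.9 and 24.9 CPM). All 5 genes were picked for their likeness to SOX9, so a shared course is built in.

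Closest to SOX10 were TNFRSF19, a receptor of the TNF family (r = 0.95), SCIN, an actin-severing protein (0.95), CRYAB, a small heat shock protein (0.95), GBE (0.94) and RAB7B, a small GTPase of endosomes (0.94). TNFRSF19 had a mean of 8.25 CPM in HH7, 37.3 CPM in HH8, 125 CPM in HH9 and 176 CPM in HH10. Closest to SOX8, with lower values, were FKBP11 (r = 0.79), a peptidyl-prolyl isomerase, GALNT6 (0.79), an enzyme of O-glycosylation, NR2F2 (0.78), a nuclear receptor, CNP (0.78), an enzyme known from myelin, and CA12 (0.77), a carbonic anhydrase. NR2F2 had a mean of 59.4 CPM in HH7, 122 CPM in HH8, 394 CPM in HH9 and 558 CPM in HH10. Ranked by Spearman's rho, 4 of these 5 genes remained for SOX9, 1 for SOX10 and 2 for SOX8. Ranked over the 12 stage means, 1 of 5 remained for SOX9, 3 for SOX10 and 0 for SOX8.

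Over stages HH5 to 6ss (31 libraries) SOX9 and SOX10 had a Pearson r of 0.88 on the log2 scale, while over 7ss to 10ss (14 libraries) it was 0.03. These are descriptions as well, and the first spans the shared rise of both genes. Over the late libraries the Pearson r of SOX9 with the 5 crest markers was 0.92 for PAX7, 0.64 for ETS1, 0.62 for SNAI2, 0.53 for FOXD3 and 0.12 for TFAP2B. That of SOX10 lay between -0.094 (FOXD3) and 0.19 (ETS1). These late values also span changes of the stage means. For deviations from the stage means over the 45 libraries, r lay between 0.11 (TFAP2B) and 0.60 (PAX7) for SOX9. For SOX10 it lay between 0.10 (TFAP2B) and 0.46 (SNAI2), and SNAI2 had 0.41 with SOX9.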

How the data were processed

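RNA of midbrain-level neural plate border and neural crest tissue of wild-type chick embryos was sequenced in 45 bulk libraries. Reads were aligned by the authors with STAR (version 2.7.2a and genome build GRCg6a in the submitters' processing notes), and the authors deposited the count of reads per gene, without normalization, together with a filtered copy in which each of the 18525 genes reaches over 5 reads in some library. A further deposited table holds a scaled signal, which equals the filtered counts as CPM after scaling by the trimmed mean of M-values (TMM), with a largest relative difference of 5e-15. The library kit kept no strand. In the RefSeq gene table of another assembly (GRCg7b) 0 genes overlapped SOX8, SOX9 or SOX10. Transcript lengths and sequences were not used here. Of the filtered genes, 12245 carried a symbol in the deposited tables, 1157 more were named through that RefSeq table, and 5123 had none.

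Counts were analysed with edgeR 4.0.16, DESeq2 1.42.0 and limma 3.58.1 (R 4.3.3), and ratios with numpy 2.4.6 and scipy 1.17.1. The filter and the thresholds of the study were kept (a log2 fold change beyond 0.75 in size, at an adjusted p below 0.05), with edgeR's quasi-likelihood test in place of the Wald test. A fit with 12 stages gave each stage against HH5 and the consecutive stages, and a fit with 6 pooled groups gave 6 comparisons, with p-values adjusted by Benjamini-Hochberg over all genes within a comparison. Standard errors were derived from the quasi-likelihood test, as the absolute log2 fold change over the square root of its F statistic. Log2 ratios between SoxE genes were taken within a library with 0.5 reads added and tested in 9 two-sided permutation tests, with 100000 resamples or by exact enumeration where a group had fewer than 10 libraries. Genes most like each SoxE gene were the 5 with the highest Pearson r of log2 CPM (prior count 2) among named genes with a mean of at least 5 CPM. From each gene list, up to 3 called genes in each direction were named, taken by the size of their change from HH5 to HH10. The genes, lists and tests were chosen with earlier results of these data known. The stage test was tried on simulated counts for 10ss against HH5 alone, with planted changes larger than those at the earliest called stages. That trial does not cover the earliest called stages, the consecutive steps or the pooled fit. Groups came from the deposited labels, and the replicate numbers from the titles. The main fits did not treat these numbers as pairs. Over 2000 variable genes, the deviations of same-numbered libraries from their stage means had a mean correlation of 0.018, against -0.0061 for other libraries. Of 234 same-numbered pairs, 28 exceeded 0.1. For 20 of 45 libraries, the nearest library of another stage had the same number. Libraries are pools of tissue from several embryos. Which library was on which sequencing run is not given in the sources used here, so p-values measure the spread between libraries. In the pooled groups that join several stages, for fits and ratio tests alike, this spread includes differences between those stages. Total reads per library limit the precision of low levels, and counting error is given beside only some of them. The alternatives were other size factors, filters and tests, a replicate block, fits with only the groups compared, another pseudocount, medians, other measures of likeness, and leaving out each library in turn.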

Additional observations from a re-analysis of the deposited data

Results flagged for a closer look

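Within stages of 4 libraries, 27 groups of SoxE values were looked at for a single distant library. Its gap to the next library had to exceed the limit for a single distant value, and 3 groups held such a library. Chance flags about 1 in 20 groups of normally distributed values, and whether 3 of 27 exceeds that was not tested. In SOX9 at 4ss, replicate 1 had 11.5 CPM and the others 4.07 to 5.14 CPM. In SOX10 at HH5, replicate 1 had 1.53 CPM and the others 6.51 to 7.38 CPM. In SOX10 at HH6, replicate 3 had 9.74 CPM and the others 5.88 to 6.26 CPM. The first 2 of these libraries also carry the earliest called stages of SOX9 and SOX10. Replicate 1 of 3ss, which was not flagged, carries that of SOX10 as well.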

How the results depend on the processing

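Fitted changes of SOX8 near 0 turned direction. SOX8 from 1ss to 2ss (-0.0030) was 0.0009 with DESeq2 size factors, 0.00595 with no filter, 0.00142 with a stricter filter, 0.00348 with only the groups compared and 0.00101 in DESeq2's Wald test. The replicate numbers were no term in the main fits. With the titles' or the descriptions' numbers as a replicate block, SOX9 from 2ss to 3ss was 0.00214 or 0.00996, SOX8 from 3ss to 4ss -0.0479 or -0.0363 and SOX8 from 7ss to 8ss -0.149 or -0.0864, and no call changed. The test against a minimum of 0.75 gave somite stages 7, 5 and 4 as the earliest of SOX8, SOX9 and SOX10 and did not call SOX9 at HH10 against HH5 (2.00) or against HH7 (1.73) nor SOX8 against HH7 (1.28). With only the groups compared, SOX9 at HH10 was called against HH6 (1.30). Medians put the highest stage of SOX10 at somite stage 10 and gave 1.30 for the SOX10 to SOX9 ratio from HH9 to HH10. Apart from these settings and single left-out libraries, no call against HH5 or between pooled groups was lost.

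Leaving out single libraries gave these ranges. The earliest stage was 4 to 5 for SOX9 and 3 to 4 for SOX10, and the highest stage 8 to 9 for SOX8 and 8 to 10 for SOX10, with 50% of it reached at 5 to 6 for SOX9. Against HH5, log2 fold changes were -0.0066 to 0.45 (SOX10 at HH6), -0.0498 to 0.62 (SOX8 at 1ss) and -0.35 to 0.0304 (SOX9 at 1ss). For consecutive stages they were -0.34 to 0.43 (SOX8) and -0.32 to 0.012 (SOX10) from 1ss to 2ss, -0.13 to 0.13 (SOX9) from 2ss to 3ss, -0.29 to 0.21 (SOX8) from 3ss to 4ss, -0.45 to 0.35 (SOX8) from 7ss to 8ss, and -0.011 to 0.79 (SOX8) and -0.76 to 0.0894 (SOX9) from 8ss to 9ss. At HH10, SOX9 was 1.45 to 2.28 against HH5 and 1.17 to 2.01 against HH7, and SOX8 1.16 to 1.49 against HH7. SOX8 from HH6 to HH8 was -0.17 to 0.0392. The SOX10 to SOX9 ratio from HH9 to HH10 was 1.16 to 1.83, the SOX10 to SOX8 ratio 0.45 to 0.64, and the SOX9 to SOX8 ratio from HH8 to HH9 -1.05 to -0.71. Low read counts of SOX8 (13 to 162) limit its small changes.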
